A study of Mus musculus with 39 samples.

Results

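Open chromatin of cKIT+ spermatogonia was compared between Kdm6a conditional knockout (cKO) and control mice by ATAC-seq, an assay in which a transposase inserts adapters into accessible DNA. The comparison covers 5 of the 39 samples of the series, all those labelled as ATAC-seq: 2 control libraries and 3 cKO libraries, each with the authors' list of broad peaks. The lists hold 126383 peaks, and peaks that overlapped by 1 bp or more in any list were merged into 52246 regions. All animals were males (fl/y) carrying a floxed allele of the X-linked gene Kdm6a. Controls were Kdm6a fl/y; Cre-, and cKO animals were Kdm6a fl/y; Ddx4-Cre+, so the recombinase is driven by Ddx4, a gene of the germ line. Other samples of the series are RNA-seq of testis and of a spermatogonial cell line, single-cell RNA-seq, and CUT&Tag of the same cKIT+ population for trimethylated lysine 27 of histone H3 (H3K27me3). Germ cells were stained with an antibody to cKIT and sorted, 100000 cells per library, and sequenced as paired reads of 100 bases. Age, strain and the number of animals per library are not stated, and nothing states that the libraries of a group came from separate animals, so p-values measure only the spread between these libraries.

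KDM6A, also called UTX, removes methyl groups from lysine 27 of histone H3, a mark laid down by the Polycomb repressive complex PRC2 and found on silent or poised genes. KDM6A is also a subunit of the KMT2C and KMT2D (COMPASS-like) complexes, which methylate lysine 4 of histone H3 at enhancers, and its Y-linked relative is Uty. The receptor tyrosine kinase KIT appears when spermatogonia leave the stem and progenitor state and begin to differentiate towards meiosis, under retinoic acid and the factor STRA8. In a sorted population a lower enrichment can mean fewer cells with an open site or a less open site in each cell, and these cannot be told apart.

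A doubt about a label comes before the results. In the deposited list of cKO 1, every peak name carries the prefix of the list of control 1. The lists are not copies, since only 7 peaks have the same coordinates in both. The libraries are called below by their sample labels, and the main comparisons are given with and without cKO 1. The reads behind each list are unknown, because peak lists hold no counts, and lists of unequal sensitivity hold different numbers of peaks.

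The promoters of 8 genes show the sequences behind the results that follow, each a window of 300 bases from 250 before to 50 after the gene start. They are from RefSeq, build GRCm38.p6 (the assembly of mm10), written 5′ to 3′ on the strand of the gene. Capitals mark matches on either strand to the CCAAT box, the GC box GGGCGG, the cyclic AMP response element TGACGTCA, the AP-1 motif TGANTCA, the TATA box TATAAA or a core CTCF motif. Kdm6a and Kit are shown as the deleted gene and the gene of the sorting marker, Stra8 and Prdm9 as genes of differentiation and meiosis with a peak in all 5 lists, Pdha1 and Inppl1 as gene starts with lower enrichment in every cKO list, Slc46a2 as a start with a peak only in cKO lists, and Car14 as one with a peak only in control lists.
Kdm6a, chrX:18162325-18162624, plus strand: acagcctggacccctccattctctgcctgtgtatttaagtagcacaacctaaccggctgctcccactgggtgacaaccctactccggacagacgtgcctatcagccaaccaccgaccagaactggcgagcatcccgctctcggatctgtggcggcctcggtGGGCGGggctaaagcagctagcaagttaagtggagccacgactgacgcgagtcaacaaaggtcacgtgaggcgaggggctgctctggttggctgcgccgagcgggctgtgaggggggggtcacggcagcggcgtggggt
Kit, chr5:75574737-75575036, plus strand: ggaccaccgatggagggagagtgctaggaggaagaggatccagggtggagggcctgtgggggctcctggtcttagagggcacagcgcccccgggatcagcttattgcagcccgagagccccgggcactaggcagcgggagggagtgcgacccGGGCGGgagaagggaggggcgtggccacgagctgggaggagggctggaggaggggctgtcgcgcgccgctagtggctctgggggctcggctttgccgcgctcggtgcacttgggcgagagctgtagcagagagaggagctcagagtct
Stra8, chr6:34920698-34920997, plus strand: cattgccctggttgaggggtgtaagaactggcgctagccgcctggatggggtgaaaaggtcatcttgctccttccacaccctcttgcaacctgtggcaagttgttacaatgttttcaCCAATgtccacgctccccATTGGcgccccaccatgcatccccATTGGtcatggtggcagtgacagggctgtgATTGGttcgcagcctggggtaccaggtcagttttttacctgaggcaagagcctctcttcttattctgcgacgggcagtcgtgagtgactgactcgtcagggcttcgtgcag
Prdm9, chr17:15564305-15564604, minus strand: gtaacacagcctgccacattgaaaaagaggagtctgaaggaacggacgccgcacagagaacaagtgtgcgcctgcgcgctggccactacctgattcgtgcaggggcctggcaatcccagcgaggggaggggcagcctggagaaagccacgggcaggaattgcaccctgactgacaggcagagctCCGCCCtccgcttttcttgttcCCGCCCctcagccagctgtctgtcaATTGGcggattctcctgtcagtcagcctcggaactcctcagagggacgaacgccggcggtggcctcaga
Pdha1, chrX:160138381-160138680, minus strand: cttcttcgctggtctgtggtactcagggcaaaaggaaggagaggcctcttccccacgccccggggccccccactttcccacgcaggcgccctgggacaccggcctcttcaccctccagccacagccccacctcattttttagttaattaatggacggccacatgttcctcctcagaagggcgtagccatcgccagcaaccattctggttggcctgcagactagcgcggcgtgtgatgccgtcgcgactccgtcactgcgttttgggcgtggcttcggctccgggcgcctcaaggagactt
Inppl1, chr7:101837775-101838074, minus strand: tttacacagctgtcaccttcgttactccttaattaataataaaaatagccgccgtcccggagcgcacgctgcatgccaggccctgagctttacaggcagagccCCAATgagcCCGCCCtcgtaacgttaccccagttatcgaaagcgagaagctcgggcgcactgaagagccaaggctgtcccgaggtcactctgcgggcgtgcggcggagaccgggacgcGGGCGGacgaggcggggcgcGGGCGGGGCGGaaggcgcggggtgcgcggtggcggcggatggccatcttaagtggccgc
Slc46a2, chr4:59915007-59915306, minus strand: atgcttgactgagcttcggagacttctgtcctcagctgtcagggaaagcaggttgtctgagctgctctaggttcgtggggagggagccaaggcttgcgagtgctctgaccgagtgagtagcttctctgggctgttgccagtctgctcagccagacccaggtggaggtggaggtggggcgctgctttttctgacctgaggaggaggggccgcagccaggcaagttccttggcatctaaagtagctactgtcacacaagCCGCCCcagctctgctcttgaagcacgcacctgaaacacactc
Car14, chr3:95904636-95904935, minus strand: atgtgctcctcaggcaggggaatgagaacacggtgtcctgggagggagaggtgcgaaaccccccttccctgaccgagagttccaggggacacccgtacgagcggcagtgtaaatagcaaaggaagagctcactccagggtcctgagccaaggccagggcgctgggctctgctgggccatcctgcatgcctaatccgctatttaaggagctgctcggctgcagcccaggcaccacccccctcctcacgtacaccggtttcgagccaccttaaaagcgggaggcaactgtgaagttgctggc
The Stra8 promoter holds 4 CCAAT words and no GC box, and the Inppl1 promoter holds 4 GC boxes and 1 CCAAT word. Prdm9 has 2 GC boxes and 1 CCAAT word, Kdm6a, Kit and Slc46a2 have 1 GC box each, and none of the 6 words is found in the Pdha1 or Car14 window. Per window, CpG dinucleotides number 35 for Inppl1, 21 for Kdm6a and for Pdha1, 20 for Kit, 18 for Prdm9, 13 for Car14, 10 for Stra8 and 8 for Slc46a2. Kit and Inppl1 each have a second listed start, and Prdm9 has a second one outside the peak.

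The peak at the Kdm6a start was present in every library, and nowhere else along the gene was a peak listed. Kdm6a spans 119075 bp (chrX:18160862-18279936), and the region at its start covered chrX:18161855-18163131, including the whole promoter window printed above. Its highest fold enrichment, the deposited ratio of signal over local background, was 6.37 in control 1 and 6.24 in control 2. In cKO it was 6.29, 7.51 and 5.87 in libraries 1 to 3, so the groups overlapped. The labels do not name the exons that Cre removes, and a peak at the start does not check the deletion.

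The number of open regions varied more within genotypes than between them. Lists held 19118 peaks in control 1 and 33250 in control 2, against 14635, 18883 and 40497 in cKO 1, 2 and 3. The means were 26184 ± 9993 (SD, n = 2) in control and 24672 ± 13869 (SD, n = 3) in cKO, and the groups overlapped throughout (two-sided exact permutation test, p = 0.9). The peaks covered 12.4 and 21.5 Mb in controls and 8.50, 11.0 and 29.4 Mb in cKO. The difference of means was -1512 peaks with all libraries and 3506 without cKO 1 (exact permutation p = 1). With 2 and 3 libraries this test cannot give a p below 0.1, and without cKO 1 it cannot go below 0.333.

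Peak width and fold enrichment also overlapped between genotypes. Median peak width was 562.5 and 539 bp in controls and 497, 504 and 603 bp in cKO (difference of means -16.1 bp, exact permutation p = 0.8). Without cKO 1 the difference was 2.75 bp (exact permutation p = 1). Median fold enrichment was 4.15 and 3.86 in controls and 3.93, 4.18 and 3.86 in cKO, a difference of -0.012 (exact permutation p = 1), or 0.019 without cKO 1 (exact permutation p = 0.667). Broad peaks of over 2000 bp numbered 137 and 284 in controls and 71, 92 and 696 in cKO.

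**Figure D1:**
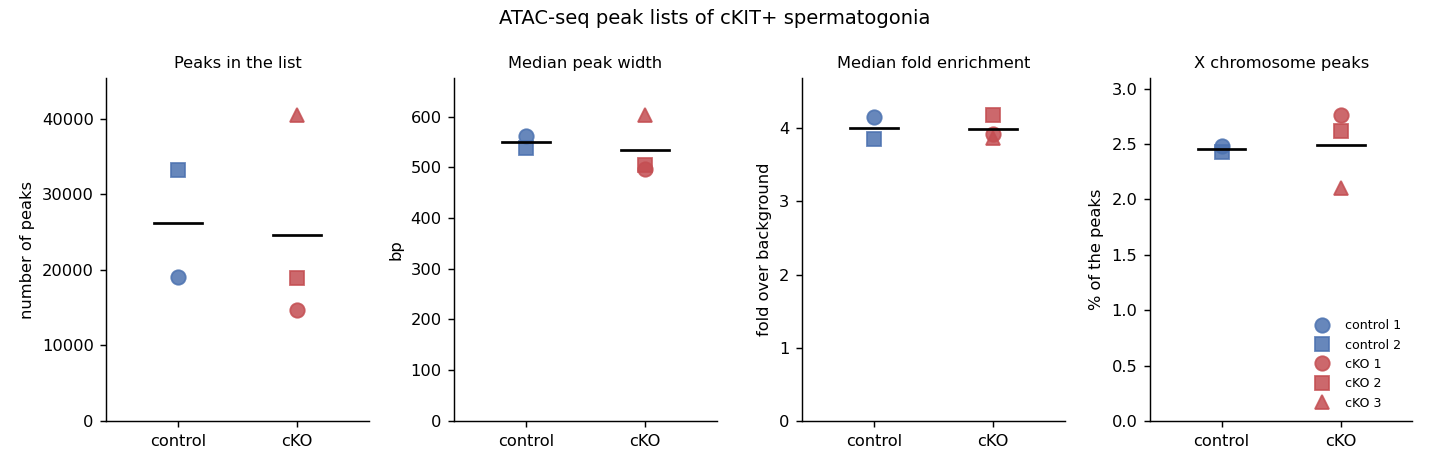
Number of peaks, median peak width (bp), median deposited fold enrichment and X chromosome share (% of peaks) of each list. Points are libraries, black lines are group means (2 control, 3 cKO); in each panel the groups overlap, with 14635 to 40497 peaks in cKO and 19118 and 33250 in controls.

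When each list was cut to its 10000 peaks of smallest q value, widths followed the length of the full list. Their median width was 662 and 796 bp in controls and 551, 606 and 899 bp in cKO, and their median fold was 5.29 and 5.83 against 4.56, 5.46 and 5.92. Of these best peaks, 61.9% and 66.3% in controls lay within 1000 bp of a listed gene start, of protein-coding or non-coding genes. In cKO the shares were 56.2%, 60.0% and 65.3%. For width, fold and promoter share of the best peaks, the exact permutation p was 0.8, 0.9 and 0.4. The difference of means (cKO minus control) went from -43.7 to 23.5 bp in width and from -0.25 to 0.13 in fold when cKO 1 was left out (exact permutation p = 1 and p = 0.667).

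The widest peak of each list lay far from genes and were present in both genotypes. In control 2 and all 3 cKO lists the widest peak fell in the same region, chr3:6298026-6307450, 307963 bp or more from the nearest protein-coding gene. Its widths there were 8809, 6546, 9177 and 8916 bp in control 2, cKO 1, cKO 2 and cKO 3, with fold enrichments of 3.25, 2.87, 3.17 and 2.88. No H3K27me3 list covered this region. In control 1 the widest peak was chr10:27820928-27824737, 3810 bp, with a fold of 3.34, and its merged region overlapped 1 H3K27me3 list.

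Libraries did not group by genotype. Over the 8644 regions found in all 5 lists, the Pearson correlation of log2 fold enrichment was highest between cKO 1 and cKO 2 (0.853) and next between control 2 and cKO 3 (0.830). The lowest values were also within the cKO group, 0.538 for cKO 1 with cKO 3 and 0.594 for cKO 2 with cKO 3, and the 2 controls reached 0.703. These correlations are across regions that share libraries and peak calling and carry no test. They were less even away from promoters: control 1 with cKO 1 gave 0.727 over 5828 promoter regions and 0.419 over 2588 others, whereas cKO 1 with cKO 2 gave 0.856 and 0.841.

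The base-pair overlap of the 10000 best peaks gave a like picture. The Jaccard index, the shared bases over all covered bases, was 0.638 for control 2 with cKO 3, 0.571 for cKO 1 with cKO 2 and 0.340 for cKO 1 with cKO 3. Pairs of the same genotype averaged 0.462 and pairs of different genotypes 0.481, a difference of -0.019 (exact permutation p = 0.9). Without cKO 1 the difference was -0.058 (exact permutation p = 0.333), and without cKO 3 it was 0.115 (exact permutation p = 0.333, the smallest it can give).

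**Figure D2:**
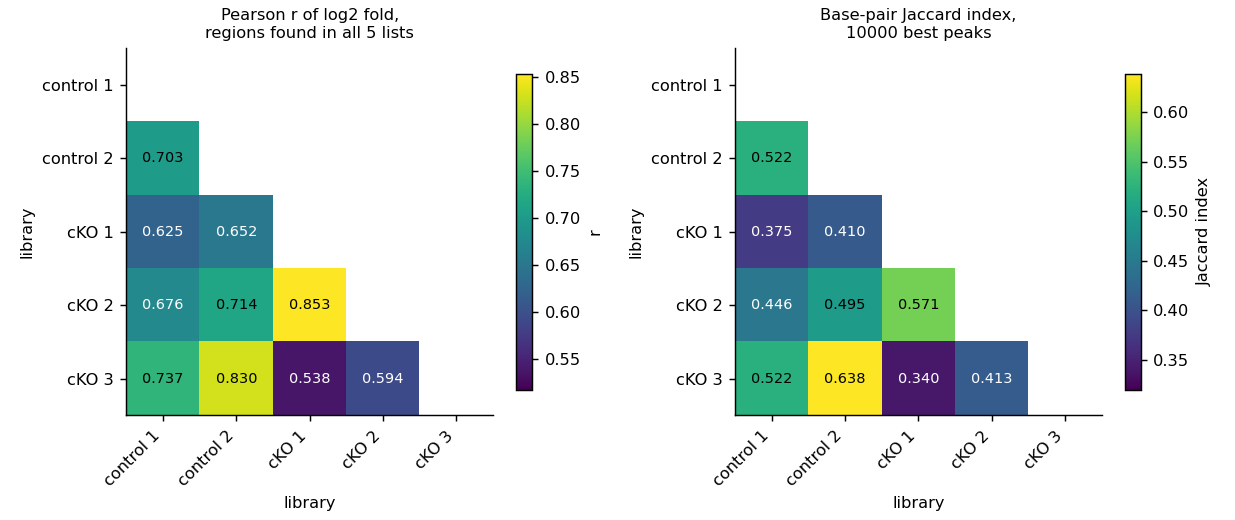
Pearson r of log2 fold enrichment over the 8644 regions found in all 5 lists (left) and base-pair Jaccard index of the 10000 best peaks (right) for the 10 pairs of libraries. The highest r is 0.853 (cKO 1 with cKO 2) and the highest Jaccard index is 0.638 (control 2 with cKO 3), a pair of different genotypes.

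Of the 52246 merged regions, 8644 were found in all 5 libraries, 4573 in 4, 6706 in 3, 11916 in 2 and 20407 in 1. The longest list, cKO 3, alone held 10691 regions that no other list had, and control 2 with cKO 3 shared 8598 that the others lacked. By contrast, the controls alone shared 185 regions. Control 1 with cKO 1 shared 14 found in no other list, and cKO 1 with cKO 2 shared 765.

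Regions found in more libraries lay more often at gene starts. A start was taken from RefSeq (GRCm38.p6), which gave starts for 17492 of 21900 protein-coding genes and none on chromosome 18. Shares of regions and peaks at promoters count any listed start, non-coding genes included. They leave out that chromosome and are lower limits. Shares of genes, and the division of X chromosome peaks below, use starts of protein-coding genes only. Promoters made up 8.28% of regions found in 1 library, 15.4% in 2, 23.7% in 3, 38.7% in 4 and 69.2% in all 5. Median width rose in parallel from 341 to 1074 bp, and the median of the highest fold from 3.29 to 6.58. Part of this rise is built in, since the width is of the merged region and the fold is the highest over libraries. Within single libraries, regions found in all 5 had a median covered length of 561 to 991 bp and a median fold of 4.64 to 5.82.

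Promoters with a peak in every list were richer in CpG and in GC boxes. Over 21263 starts of protein-coding genes, the 300-base windows of the 7230 starts with a peak within 1000 bp in all 5 lists had a median of 7.67 CpG per 100 bases and 62.7% GC. The 7981 starts with no peak had 1.00 CpG per 100 bases and 47% GC. A GC box was found in 71.8% of the former, 15.1% of the latter and 46.2% of all windows. TATAAA went the other way, at 5.44%, 22.7% and 12.6%, and CCAAT differed little, at 42.4%, 38.6% and 38.2%. TGACGTCA was found in 4.08%, 0.789% and 2.23%, and TGANTCA in 3.64%, 11.1% and 6.99%. CANNTG (the E box) was found in 59.3%, 78.9% and 69.0%, and the core CTCF motif in 0.0830%, 0.0125% and 0.0470%. A word match is a description and not a binding site.

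This composition hardly differed between genotypes. Median CpG per 100 bases of the starts with a peak was 7.33 in control 1, 7 in control 2, 7.67 in cKO 1, 7.67 in cKO 2 and 7 in cKO 3, so the shorter lists held the more CpG-rich starts. The GC box share ran from 65.8% (cKO 3) to 70.7% (cKO 1).

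Regions found in all 5 ATAC lists overlapped H3K27me3 less often than the others. The 5 H3K27me3 CUT&Tag lists of the same cKIT+ population, 2 control and 3 cKO, covered 4.64%, 5.47%, 2.73%, 3.94% and 4.92% of these regions, in the order control 1, control 2, cKO 1, cKO 2, cKO 3. Over all merged regions the shares were 10.1%, 13.1%, 6.25%, 8.26% and 12.0%. The IgG list, a background control, covered 0.396%. The H3K27me3 lists themselves covered 48.1, 81.3, 21.3, 30.3 and 70.1 Mb, and the shares follow that order of length. In all, 92.4% of the regions found in every ATAC library met no H3K27me3 list, against 83.3% of all merged regions. CUT&Tag and ATAC libraries with the same number are not stated to be from the same animals.

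**Figure D3:**
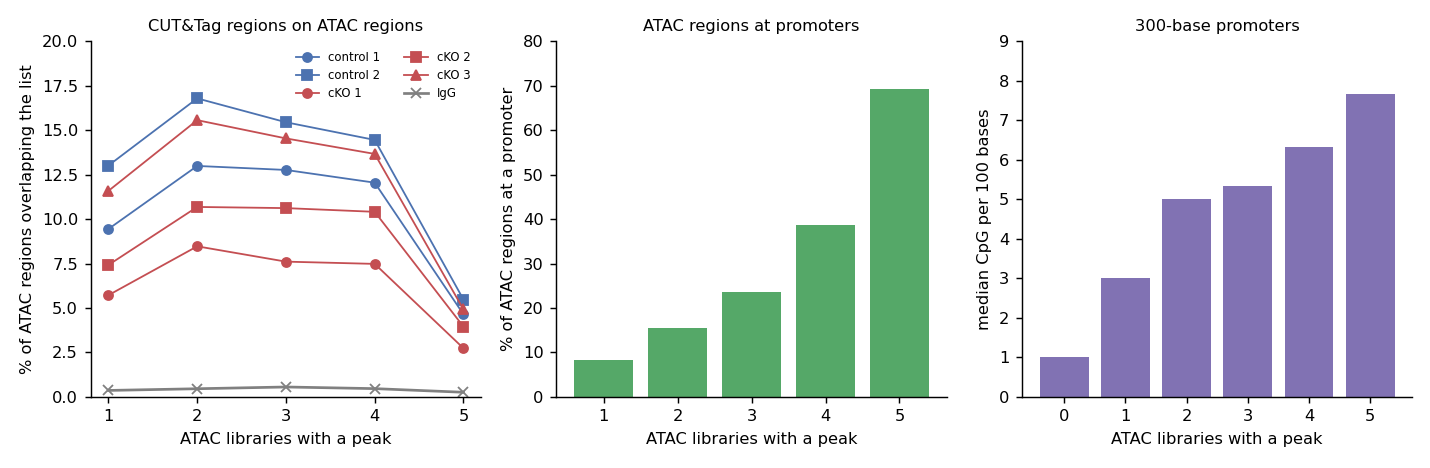
ATAC regions by the number of ATAC libraries with a peak: share overlapping each H3K27me3 list or the IgG list (left, %), share within 1000 bp of a gene start (middle, %), and median CpG per 100 bases of promoter windows (right). The share at promoters goes from 8.28% in 1 library to 69.2% in all 5, while in all 5 H3K27me3 lists the overlap is lowest in regions found in every ATAC library.

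At the regions shared by all lists, no difference between genotypes passed the test. Quantile-normalized log2 fold enrichment was fitted with limma over 8644 regions, and 0 (0%) had an adjusted p under 0.05, the smallest being 0.998. At an unadjusted p under 0.05 there were 196 (2.27%), 120 higher and 76 lower in cKO. With median centring in place of quantile normalization these were 151 higher and 53 lower, again with 0 called by limma. Without cKO 1, 0 of 11696 regions were called by limma, with 95 at an unadjusted p under 0.05. The central 90% of differences lay between -0.30 and 0.32 on the log2 scale, with a median of 0.00 and a median standard error of 0.18. 

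After quantile normalization, every cKO value was above both control values in 565 shared regions (6.54%) and below both in 598 (6.92%). With no normalization between libraries these counts were 303 and 594, and with median centring 630 and 487. Without cKO 1 they were 1187 and 1188 of 11696 regions. The higher ones lay at promoters in 58.4% of cases and the lower ones in 76.2%, against 69.2% of all shared regions. Of these, 18.8% of the higher and 6.56% of the lower regions lay between genes, against 12.0% of all. An H3K27me3 list met 10.4% of the higher, 8.70% of the lower and 7.62% of all shared regions. No test was made of these shares.

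The regions of smallest p that were higher in cKO lay away from gene starts. None of the regions named here and in the next paragraph was called (limma adjusted p = 0.998 for each). In the body of Fgd4, which encodes an exchange factor for the small GTPase CDC42, the region chr16:16507233-16508165 had a fold of 2.98 and 4.37 in controls and 5.44, 6.98 and 5.89 in cKO. The difference was 0.82 (SE 0.19) in log2 after normalization. That the groups do not overlap here, and in the other regions of smallest p, was a condition of their choice. In the body of Agbl1, a gene of the cytosolic carboxypeptidase family, chr7:76832616-76833525 gave 4.38 and 3.79 against 8.42, 8.31 and 6.04, with cKO 3 nearest to the controls (0.88, SE 0.22). Between genes, 9233 bp from the receptor gene Mrgprb3, chr7:48632758-48633630 gave 3.19 and 4.25 against 7.35, 8.66 and 5.18 (0.92, SE 0.24). The remaining regions were chr9:38839934-38840631, 7485 bp from the olfactory receptor gene Olfr924, and chr17:60789972-60790629, 1776605 bp from Nudt12, with differences of 0.78 and 0.66. No H3K27me3 list met any of these 5 regions, as was so for 92.4% of all shared regions.

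Among the 5 regions of smallest p that were lower in cKO, 3 lay at gene starts, against 69.2% of all shared regions. At Pdha1, the X-linked gene of the E1 alpha subunit of pyruvate dehydrogenase, chrX:160137700-160138761 had a fold of 6.23 and 6.45 in controls and 3.91, 4.57 and 4.53 in cKO. The normalized difference was -0.50 (SE 0.16). At Inppl1, which encodes a phosphoinositide phosphatase, chr7:101836378-101838660 gave 5.62 and 5.81 against 3.68, 3.88 and 3.82 (-0.51, SE 0.16), but with the width-weighted mean fold of the peaks in place of the highest the difference was -0.23. At Bicd2, which encodes an adaptor of the dynein motor, chr13:49341026-49341904 gave 7.78 and 9.55 against 5.39, 5.81 and 6.53 (-0.53, SE 0.17). The other regions lay in the body of the keratin gene Krt78 (chr15:101983514-101984682, -0.55) and where Gpaa1 and Oplah lie side by side (chr15:76331012-76331880, -0.50). Again no H3K27me3 list met these regions, as was so for 92.4% of all shared regions.

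**Figure D4:**
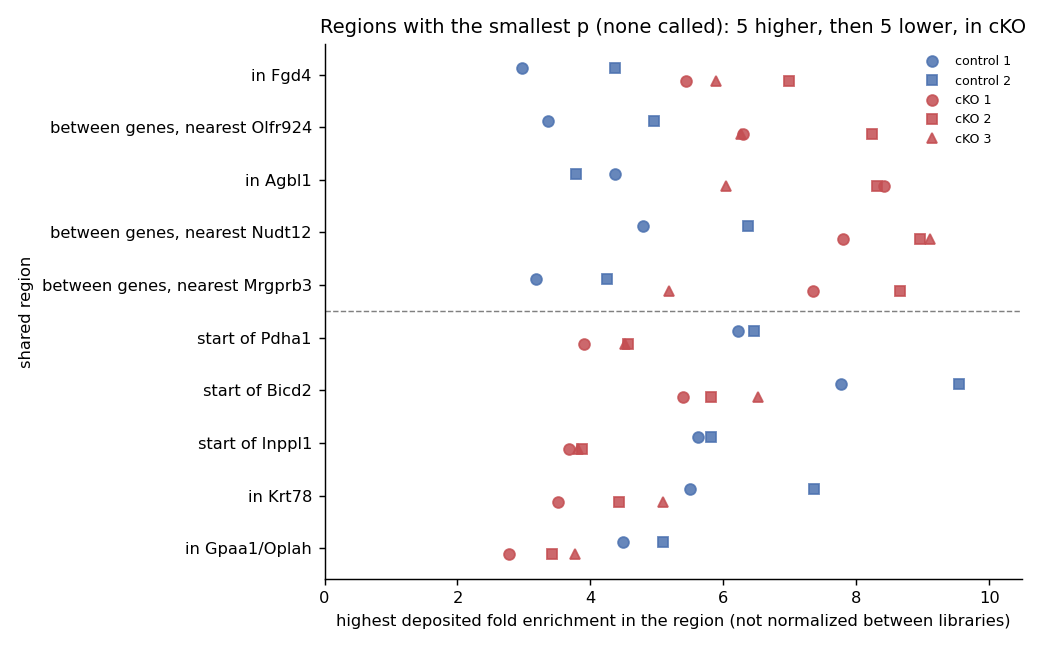
Highest deposited fold enrichment of each library in the 5 regions of smallest p that were higher in cKO (top) and the 5 that were lower (bottom), chosen among regions whose groups do not overlap. None was called by limma (adjusted p = 0.998); in the Pdha1 row the controls sit at 6.23 and 6.45 and the cKO libraries between 3.91 and 4.57.

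Calls appeared when cKO 3 was left out. With control 1, control 2, cKO 1 and cKO 2, limma called 5 of 8737 regions (0.0572%), all higher in cKO and none at a gene start. They were chr14:46988873-46989699 in the body of Samd4 (log2 difference 1.27, SE 0.16, adjusted p = 0.038), chr8:60281376-60282547, chr7:48304059-48305158, chr15:30093865-30095342, and the region near Mrgprb3 named above (1.17, SE 0.17, adjusted p = 0.040). In cKO 3 these 5 regions had folds of 3.16, 3.40, 3.69, 3.92 and 5.18. The change without cKO 3 went in both directions. At an unadjusted limma p under 0.05 there were 1345 of 8737 regions, 703 higher and 642 lower in cKO. With all 5 libraries there were 196 of 8644.

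The regions of highest mean enrichment were chosen among those found in all 5 libraries. The highest of all was chr1:100180094-100180419 in the body of Cntnap5b, with folds of 15.2 and 23.3 in controls and 18.6, 19.1 and 20.8 in cKO. It overlapped all 5 H3K27me3 lists and the IgG list. Next came chr2:66189210-66189473 in the body of Ttc21b, an intraflagellar transport gene, with 14.1 and 14.8 against 15.7, 17.9 and 16.2. A region in the body of the growth factor gene Pdgfc, chr3:81070576-81071897, had 8.90 and 16.8 against 11.4, 14.9 and 12.4. The last of the top 5 were on the X chromosome between genes, chrX:92872017-92872984 with 9.82 and 14.3 against 12.4, 16.8 and 10.6, and chrX:70634693-70635946 with 5.82 and 13.1 against 13.2, 14.8 and 13.5. In the Ttc21b region and the last of these every cKO value exceeded both control values, and in the other 3 the groups overlapped. With no normalization, every cKO value exceeded both control values in 303 of the 8644 shared regions.

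Few regions separated the genotypes completely. Both controls and no cKO library had 185 regions (0.354% of all merged regions), and all 3 cKO libraries and no control had 143 (0.274%). The counts are unlike measures, since a control-only region needs 2 libraries and a cKO-only region 3. Without cKO 1 they were 195 and 498, without cKO 3 they were 4302 and 909, without control 1 4430 and 180, without control 2 1093 and 1159, and without cKO 2 211 and 315. At a -log10 q of 5 or more they were 31 and 50. Promoters made up 4.89% of the control-only and 3.52% of the cKO-only regions, against 24.7% of all.

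The strongest of these regions lay mostly away from gene starts and met no H3K27me3 list. The same held for most regions of either kind: 87.6% of control-only and 88.8% of cKO-only regions met no list, against 83.3% of all merged regions. Control-only regions were led by chr1:74014628-74014890 in the body of Tns1, with folds of 5.62 and 4.36, and chr9:84094138-84094454 in the body of Bckdhb, with 5.74 and 3.85. They went on with chr5:123051020-123051297 near Morn3 (4.75 and 4.68), chr11:96837325-96837643 near Nfe2l1 (5.46 and 3.47) and chr3:106684836-106685187 at the start of Lrif1 (4.20 and 4.71). Lrif1 encodes an interactor of the ligand-dependent nuclear receptors. When every peak within 1000 bp of a start is counted, Lrif1 is not among the genes, named below, with a peak only in controls. The cKO-only regions were led by chr3:132621673-132622052, 7794 bp from Gimd1, with folds of 5.68, 6.73 and 4.10. In the body of Fancl, a ubiquitin ligase gene of the Fanconi anaemia pathway, chr11:26426615-26427346 had 5.40, 6.83 and 3.97. Others were chrX:40639519-40640022 (5.84, 5.68 and 3.86), chr11:64299119-64299834 (5.21, 5.87 and 4.07) and a region on chromosome 18 (4.16, 6.36 and 4.66). In 4 of these 5 regions cKO 3 had the lowest fold, but the share over all cKO-only regions is not given.

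At the level of genes, a peak lay within 1000 bp of a start in all 5 libraries for 6222 of 17492 protein-coding genes (35.6%) and in none for 6286 (35.9%). Per library, 48.5% and 59.3% of genes had one in controls and 38.4%, 46.8% and 62.1% in cKO. The library labelled cKO 1 alone lacked a peak at 1232 genes (7.04%). Lists of marker genes held 81 genes, of which 57 had a listed start. Of these 57, 26 had a peak in all 5 libraries.

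Genes of differentiating spermatogonia were open in both genotypes. Of 8 with a listed start (of 12 in the list), all had a peak in both controls, cKO 2 and cKO 3, and 5 also in cKO 1, so 62.5% had one in all 5 libraries, against 35.6% of all genes. At Kit, the gene of the sorting marker, the fold was 4.37 and 4.63 in controls and 4.88, 4.41 and 4.38 in cKO. At Stra8, needed for entry into meiosis, it was 3.13 and 3.82 against 3.19, 3.81 and 3.45. At Sohlh2, a transcription factor gene of differentiation, it was 3.70 and 4.81 against 4.79, 5.25 and 4.17, and at Rarg, a retinoic acid receptor gene, 4.19 and 3.83 against 3.08, 4.54 and 4.03. All 4 overlapped between genotypes. Among the 8644 shared regions with no normalization, the groups failed to overlap in 303 that were higher and 594 that were lower in cKO. The genes without a peak in cKO 1 were Sohlh1, Dmrtb1 and the DNA methyltransferase gene Dnmt3b, whose folds in the other 4 libraries lay between 2.69 and 4.14.

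Of 7 meiotic genes with a listed start, 6 had a peak in all 5 libraries, against 35.6% of all protein-coding genes. Prdm9, which encodes the histone methyltransferase that places recombination hot spots, had folds of 8.53 and 9.53 in controls and 6.93, 8.33 and 9.42 in cKO. Sycp1, a component of the synaptonemal complex, had 4.13 and 5.30 against 5.25, 5.63 and 5.52, and the recombinase gene Dmc1 5.44 and 5.01 against 4.52, 4.71 and 4.74. Meioc, needed to sustain meiotic prophase, had 4.60 and 5.74 against 6.70, 6.60 and 4.91. Only Hormad1, a gene of the chromosome axis, lacked a peak in 1 library, cKO 1.

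Of 9 stem and progenitor genes, 2 were open in all 5 libraries (22.2%, against 35.6% of all genes) and 3 in none (33.3%, against 35.9%). Etv5, a target of GDNF signalling, had the highest folds, 9.27 and 6.71 in controls and 8.69, 8.03 and 6.83 in cKO, and Foxo1 had 4.77 and 5.36 against 3.94, 3.65 and 4.74. Nanos2, Nanos3 and Neurog3 had no peak in any library. Gfra1, the GDNF co-receptor gene, had one in control 2 (2.93) and cKO 3 (3.40), and Id4 in both controls and cKO 3 (3.80, 4.34 and 4.12).

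Markers of other testis cells were compared with the 35.9% of all genes that had no peak in any library. No spermatid gene but Tssk6 was open in more than 2 of the 5 libraries, 6 of 9 were open in none, and the start of Tssk6 shares its window with that of the respiratory chain gene Ndufa13. Of 4 Sertoli cell genes, 2 had a peak in cKO 3 alone and 2 in none. Of 3 immune genes 1 had a peak, Cd68 in control 2. The Leydig cell genes Cyp11a1 and Insl3 had peaks in 5 and 4 libraries, with folds of 3.62 and 3.87 against 3.00, 3.08 and 5.04 at Cyp11a1, while Hsd3b1 had none. The part of such cells in the results was not tested.

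Of the genes of enzymes that write and erase H3K27me3, 6 of 7 had a listed start, and each of the 6 had a peak in both controls and in at least 1 cKO library. Ezh2, a catalytic subunit of PRC2, had folds of 7.92 and 7.14 in controls and 8.71, 6.27 and 9.17 in cKO, and its core partners Eed and Suz12 lay between 4.85 and 6.30 in all libraries. Ezh1 lacked a peak in cKO 1. At the start of Uty the fold was 5.41 and 5.66 in controls and 5.98 in cKO 3, with no peak in cKO 1 or cKO 2. Of the COMPASS-like partners of KDM6A, 7 of 8 had a peak in all 5 libraries, and of the H3K27 enzyme genes 4 of 6 did, against 35.6% of all genes. At Kmt2d the fold was 5.36 and 6.86 against 3.80, 5.36 and 6.47, and at Paxip1 7.17 and 8.52 against 5.47, 6.40 and 8.80, with cKO 1 lowest at both. At Kmt2c it was 4.63 and 4.42 against 5.13, 5.26 and 5.22. Every cKO value there exceeded both control values, as at Suz12 and, with no normalization, in 303 of the 8644 shared regions. Nor was cKO 1 lowest at Dpy30 or Wdr5. Ncoa6 had no peak.

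A peak at the start in both controls and in no cKO library was found at 3 genes (0.0172%), and the reverse at 5 (0.0286%). The former were Adamts12, a metalloprotease gene (3.32 and 3.20), Anxa1, the annexin A1 gene (3.37 and 3.12), and Car14, a carbonic anhydrase gene (3.45 and 2.94). Without cKO 1 the counts were 4 and 47, without cKO 3 772 and 7, without control 1 196 and 7, without control 2 34 and 205, and without cKO 2 5 and 21. The 5 genes with a peak only in cKO were Erbb4, Ptgdr, Slc46a2, Usp49 and Zar1. At Usp49, a deubiquitinase gene, the merged region itself was found in all 5 libraries with folds of 5.64 and 7.70 in controls, and only its edge set the genotypes apart. At Erbb4, a receptor tyrosine kinase gene, control 2 likewise had a peak in the merged region (4.31).

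The other 3 regions with a cKO-only peak at a start carried H3K27me3 in all 5 CUT&Tag lists. At Ptgdr, the prostaglandin D2 receptor gene, the folds were 3.16, 4.28 and 4.56 in cKO 1, 2 and 3. At Slc46a2, a solute carrier gene, they were 3.36, 3.39 and 3.16, and at Zar1, known for its role in the oocyte, 3.55, 3.43 and 3.62. Of all merged regions 4.44% overlapped all 5 H3K27me3 lists, and of the 143 cKO-only regions 7 (4.90%) did, while 88.8% met none. The region at Erbb4 met 3 of the lists and that at Usp49 none. The regions at Adamts12, Anxa1 and Car14 overlapped none. H3K27me3 at these regions was looked up after their values were seen.

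The share of peaks on the X chromosome, where Kdm6a lies, was 2.48% and 2.43% in controls and 2.76%, 2.62% and 2.10% in cKO. The cKO values lay on both sides of the controls, and the difference was 0.037 percentage points (exact permutation p = 1), or -0.097 without cKO 1 (exact permutation p = 1). Over the 21 chromosomes, the shares of 5 did not overlap between genotypes (4, 12, 14, 17 and Y), and the smallest adjusted p of the exact permutation tests was 0.63. Chromosome 17 showed the widest of these gaps, with 4.85% and 4.86% of peaks in controls and 4.29%, 4.57% and 4.74% in cKO. The Y shares rested on 5 peaks in each control list and on 2, 1 and 5 peaks in cKO 1, 2 and 3.

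Peaks on the X chromosome were divided into those at promoters, here of protein-coding genes only, and those elsewhere. Of 817 X-linked genes, 34.0% and 46.3% had a peak at a start in controls, and 18.8%, 26.3% and 49.6% in cKO. Autosomal genes gave 49.9% and 60.7% against 39.8%, 48.4% and 63.6%. Control 1 and cKO 2, with nearly equal numbers of peaks and of open autosomal genes, had 278 and 215 open X-linked genes. Control 2 and cKO 3 had 378 and 405. The part of list length and read depth in these numbers was not tested. The X share relative to autosomes was thus 0.682 and 0.762 in controls and 0.473, 0.543 and 0.780 in cKO, so cKO 1 and cKO 2 lay below the controls and cKO 3 above them (exact permutation p = 0.4, and p = 1 without cKO 1).

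Among the 10000 best peaks of each list, X promoters had 161 and 180 peaks in controls and 120, 142 and 184 in cKO. X sites elsewhere had 87 and 106 against 192, 174 and 78. They made up 2.16% and 2.95% of all best peaks outside promoters in controls and 4.27%, 4.20% and 2.11% in cKO (exact permutation p = 0.4, and p = 1 without cKO 1). Over the 7 comparisons of this kind, chosen after the data were seen, each adjusted p of the exact permutation test was 0.5.

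**Figure D5:**
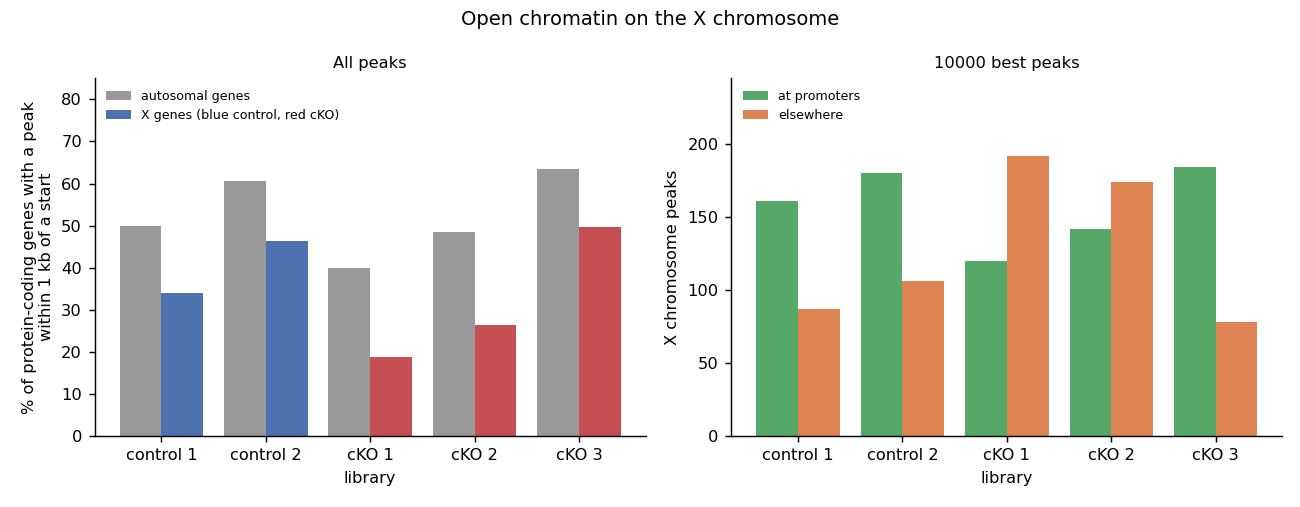
Left: share (%) of protein-coding genes with a peak within 1000 bp of a start, autosomal (grey) and X-linked (blue control, red cKO), from all peaks. Right: number of X chromosome peaks at promoters of protein-coding genes and elsewhere among the 10000 best peaks of each list. Elsewhere peaks number 192 and 174 in cKO 1 and cKO 2 and 78 to 106 in the other 3 libraries.

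Of the 143 cKO-only regions 10 (6.99%) lay on the X chromosome, against 1 of 185 control-only regions (0.541%) and 2.07% of all merged regions. None of the 10 lay at a gene start, and none met an H3K27me3 list. Of all cKO-only regions, 3.52% lay at promoters and 88.8% met no H3K27me3 list. They include a pair in the body of Eda, the ectodysplasin gene (chrX:100108186-100108752 with folds of 3.89, 4.49 and 3.47 in cKO 1, 2 and 3, and chrX:100176914-100177529 with 3.95, 4.54 and 3.08), and one in the protocadherin gene Pcdh11x (3.24, 4.12 and 3.06). In 9 of the 10 the lowest fold was in cKO 3, but the share over all 143 cKO-only regions is not given.

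On the Y chromosome 5 regions were found, all of them in both controls and in cKO 3. The library labelled cKO 1 had 2 of them and cKO 2 had 1. The region in the body of Uty, chrY:1193899-1195048, was found in all 5 libraries, with folds of 4.64 and 6.03 in controls and 5.67, 6.44 and 4.88 in cKO. At the start of Eif2s3y, a translation factor gene, folds were 5.62 and 6.35 in controls, 4.35 in cKO 1 and 7.80 in cKO 3, with none in cKO 2. At the start of Uba1y, a gene of the ubiquitin-activating enzyme, they were 3.17 and 4.35 in controls and 4.69 in cKO 3 only. The Uba1y and Uty starts thus lacked a peak in cKO 1 and cKO 2, and the Eif2s3y start in cKO 2.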

How the data were processed

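ATAC-seq peak lists of 2 control and 3 cKO libraries of sorted cKIT+ spermatogonia were used, 100000 cells each and amplified for 11 PCR cycles, per the labels' protocols. The authors' processing used cutadapt, Bowtie2 and MACS2 on mm10, per the submitters' processing notes, with no versions given. The deposited broad-peak files give, for each peak, the fold enrichment (a ratio over local background), the -log10 of p and q, and a score. Every -log10 q is at least 1.30, the score is 10 times -log10 q cut to a whole number in 99.99% of peaks, and no source says whether duplicates were removed or Tn5 insertion sites shifted. The deposited CUT&Tag regions give summed and highest signal, of which only positions were used. 

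Members, lists and tests were chosen with earlier results of these data known. Peaks overlapping by 1 bp were merged, the highest fold per library was kept, and regions found in all 5 lists were tested with limma 3.58.1 (R 4.3.3) on quantile-normalized log2 fold, with Benjamini-Hochberg adjustment. Such regions exclude sites open in 1 genotype, which were counted without a test. Single values were compared by two-sided exact permutation (Python 3.11.15). limma and the merging step were tested on simulated data. With an SD of 0.22 taken from the 2 controls, limma called 14% of the regions changed by 0.5 in log2. It called 94% of those changed by 1, and also 11 unchanged regions. The simulated noise was independent and of equal size in every region and library, unlike the unevenly correlated real libraries. These shares therefore do not give the part of real changes that would be found. In the real fit, regions with differences of 0.88 and 0.92 were not called. Regions named are the 5 per direction with the smallest p whose groups do not overlap (fewer than 5 being called), the 5 of highest mean, the 5 control-only and 5 cKO-only of largest summed fold, and the widest peak per library; the genes are those of the marker lists and Kdm6a. The genes with a peak at the start in 1 genotype, the X-linked cKO-only regions, the Y regions and the regions called without cKO 3 were named after their values were seen. No genome sequence was used, so the planned sequence description was made on RefSeq promoters in place of regions. Alternatives covered peak thresholds, merging, normalization, a pseudocount of 1, left-out libraries and replicate blocks.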

Additional observations from a re-analysis of the deposited data

How the results depend on the processing

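Read depth is unknown, and peak numbers, covered length, genotype-specific regions and missing peaks can depend on it; groups of 2 and 3 libraries limit every test. Leaving out each library in turn gave differences (cKO minus control) of -9425 to 5554 in the number of peaks, -50.3 to 2.75 bp in median width, -0.16 to 0.13 in median fold, -0.097 to 0.23 percentage points in the X share, and -0.073 to 0.12 in the Jaccard index within minus between genotypes. No exact permutation p in these settings was under 0.333. At a -log10 q of 5 or more the difference in median fold turned to 0.081 (exact permutation p = 0.9). Control-only regions numbered 109 and 31 at a -log10 q of at least 2 and 5, and cKO-only regions 157 and 50. With a library left out, control-only regions numbered 195 to 4430, cKO-only regions 180 to 1159, genes with a peak at the start only in controls 4 to 772 and only in cKO 7 to 205 (this last pair was added after seeing the data). Under 6 other settings of normalization, region value, merging, threshold and pseudocount, limma called 0 regions each, and 0 to 5 with a library left out, the 5 without cKO 3. The cause of these shifts was not tested.

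Replicate numbers 1 and 2 occur in both genotypes, but no source says that they pair animals. Deviations from the group means correlated at 0.060 for the pair numbered 1 and -0.046 for the pair numbered 2, over the shared regions. The deviations of the 2 controls are exact opposites, so their values with a given cKO library differ only in sign and are not separate checks. The names of the deposited lists number the controls 2 and 3 where the titles have 1 and 2, and by those numbers the values were 0.046 (control 1 with cKO 2) and 0.074 (control 2 with cKO 3). A block also takes the unpaired library out of the comparison, cKO 3 for the replicate number and cKO 1 for the list names, so the differences in peaks, width, fold and X share equal those without that library. With the replicate number as a block, limma called 140 of 8644 regions, 117 higher and 23 lower in cKO, with 1 residual degree of freedom. The differences were -9425 peaks, -50.3 bp in width, 0.051 in fold and 0.23 percentage points in X share. Among the named regions, the block gave adjusted p-values of 0.024 in the Fgd4 body, 0.024 near Olfr924, 0.013 in the Agbl1 body and 0.0086 near Mrgprb3. The other named regions of smallest p stayed uncalled by limma, with adjusted p from 0.085 to 0.20. With the numbers in the names of the deposited lists as the block, the difference was 3506 in peaks, 2.75 bp in width, 0.019 in fold and -0.097 in X share, and limma called 0 regions.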
